A study of Homo sapiens with 6 samples.

Results

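The 10 S100 genes described here were S100A4, S100A6, S100A8, S100A9, S100A10, S100A11, S100A13, S100A14, S100A16 and S100P. They were found in a count table of 60656 genes by their Ensembl identifiers, and all 10 had a row. The libraries came from parental ZR-75-1, a human breast cancer line that is ER positive, after 4 days with DMSO (3 libraries) or with 500 nM abemaciclib (3 libraries), an inhibitor of CDK4 and CDK6. Both groups were the same line with no engineered allele and grew in the same serum-containing medium. The comparison asked how the mRNA of these genes differed when CDK4/6 was inhibited. The values come from 1 cell line in culture, and the study's methods describe the replicates as independent cultures, which the labels do not state.

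S100 proteins are small calcium sensors found in vertebrates. Each carries a pair of EF-hands, the helix-loop-helix fold that holds a calcium ion, and most work as dimers that open a binding face for a partner protein when calcium rises. Most S100 genes sit in a cluster on the long arm of chromosome 1, next to the genes of the epidermal differentiation complex. Inside the cell they bind annexins and cytoskeletal proteins, and some are also secreted and act on cell surface receptors such as RAGE and TLR4.

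On chromosome 1 of GRCh38, 9 of the 10 genes lay between positions 151982915 and 153631360, a span of 1648446 bases, while S100P was on chromosome 4 from 6693878 to 6697170. S100A10 and S100A11 stood 38646 bases apart at one end. S100A16, S100A14 and S100A13 followed each other at the other end on the same strand, with gaps of 1109 and 1800 bases. S100A8 and S100A13 had 3 RefSeq entries each and S100A16 had 2. For each gene 1 RefSeq start was used, the one at the start of its canonical GENCODE transcript, and other starts were not searched. To set the start regions of 9 of these genes side by side, the lines below give bases −35 to −6 before that start. A TATA box would lie there, and capitals mark the motifs searched (GRCh38.p14, 5′ to 3′).
S100A8, chr1:153391079-153391108, minus strand: aaccgcTATAAAaaggagctgcctctcagc
S100A9, chr1:153357819-153357848, plus strand: gctgccTATAAAtgccgagcctgcacagct
S100A4, chr1:153545812-153545841, minus strand: ggggTATAAAtAGGTCAgacctctgggccg
S100A13, chr1:153627511-153627540, minus strand: gctgCTTATAAAcctcagccctgaggctcc
S100P, chr4:6693843-6693872, plus strand: gctgcCTTATAAAgcaccaagaggctgcca
S100A6, chr1:153535997-153536026, minus strand: accgcTATAAGgccagtcggactgcgacac
S100A14, chr1:153616331-153616360, minus strand: cccaggTATAAGagctgagctcaggtgagc
S100A16, chr1:153613143-153613172, minus strand: tccctttaacaagggcccaaccccagggcc
S100A11, chr1:152037010-152037039, minus strand: gcttgggcaaggctgggccgggaagggcgt

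The letters TATAAA stood between 31 and 23 bases before the start in S100A4, S100A8, S100A9, S100A13 and S100P, and TATAAG, a form added after these letters were seen, in S100A6 and S100A14. TATAAA alone occurred, on either strand, somewhere in the 250 bases before 10.8% of 34943 annotated starts, and in those of 5 of the 10 S100 genes. One or the other form occurred in 14.2% of these windows and in those of 7 of the 10 S100 genes. The count for both forms was favoured by the later addition of TATAAG. In S100A13 and S100P the TATAAA overlaps a TATAAG read on the opposite strand. S100A10, S100A11 and S100A16 held neither form. AGGTCA, the repeated unit of the oestrogen response element, was in the window of S100A4 alone, against 12.1% of all starts. The AP-1 motif TGANTCA (6.59% of all starts) and the E2F motifs TTTGGCGC (0.547%) and TTTCCCGC (1.39%) were in none of the 10 windows, all searched on both strands. These matches are descriptions of letters and do not separate the genes that fell from those that did not. The 250 bases before the start are given in full for S100P, the gene with the largest fitted fall and the only one outside chromosome 1, and for S100A11, an abundant member that did not pass the test.
S100P, chr4:6693628-6693877, plus strand: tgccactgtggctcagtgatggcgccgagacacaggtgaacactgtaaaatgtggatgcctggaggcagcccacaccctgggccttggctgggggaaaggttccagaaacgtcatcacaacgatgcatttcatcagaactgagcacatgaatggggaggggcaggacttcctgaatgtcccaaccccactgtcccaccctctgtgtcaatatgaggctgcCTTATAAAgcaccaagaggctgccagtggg
S100A11, chr1:152037005-152037254, minus strand: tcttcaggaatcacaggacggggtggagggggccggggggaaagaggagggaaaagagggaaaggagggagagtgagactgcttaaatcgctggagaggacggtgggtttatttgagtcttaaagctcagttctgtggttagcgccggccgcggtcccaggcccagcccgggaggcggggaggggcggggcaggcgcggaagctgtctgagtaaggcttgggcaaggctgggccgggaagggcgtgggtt

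The libraries held between 3317860 and 4013156 counts. With 3′ mRNA libraries long transcripts gain no extra counts, and levels are given as CPM, counts per 1000000 in the library after TMM scaling. A gene at 0 counts could have had up to 0.736 to 0.904 CPM, depending on the library (3 counts, counting error only). MKI67, a marker of cycling cells, fell from 523.1 ± 31.2 CPM (SD, n = 3) to 4.98 ± 2.27 CPM (SD, n = 3), and the part of this change in the S100 results was not tested. All 7 luminal markers (ESR1, GATA3, FOXA1, KRT8, KRT18, KRT19 and EPCAM) had counts in every library, with summed levels of 6626 to 7236 CPM with DMSO and 7524 to 8595 CPM with abemaciclib. Within them ESR1 and KRT19 rose by 0.83 and 0.45 on the log2 scale and KRT18 fell by 0.34 (edgeR adjusted p = 2.91e-07, 0.000207 and 0.00515), and the other 4 did not pass. Of 8 myeloid markers 6 were at 0 in all libraries, including PTPRC, CD14 and ITGAM, and their summed level was 0 to 3.25 CPM with DMSO and 0 to 0.982 CPM with abemaciclib. Of 6 basal or squamous markers 4 were at 0, including KRT5, KRT14 and TP63, with a sum of 0 to 1.81 CPM with DMSO and 0 to 0.245 CPM with abemaciclib. The 5 fibroblast markers summed to 10.3 to 15.7 CPM with DMSO and 10.1 to 15.3 CPM with abemaciclib, nearly all from COL1A1, and the 3 endothelial markers to 0 to 0.886 CPM and 0 to 1.5 CPM.

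With abemaciclib, 6 of the 8 S100 genes that could be tested fell and 0 rose (edgeR's quasi-likelihood test, adjusted p under 0.05 over 10863 genes). Over all genes tested, 13.3% fell and 12.5% rose. No S100 gene rose at an unadjusted p under 0.05 either, and DESeq2 also gave 0 higher and 6 lower. The genes that fell were S100A6, S100A10, S100A13, S100A14, S100A16 and S100P, and those that did not pass were S100A4 and S100A11. S100A8 had no counts at all and S100A9 had 3 in 1 library, so neither was tested. S100P passed the filter on low counts through its DMSO libraries (3 of 3 over 2.93 CPM, against 1 of 3 with abemaciclib), so a fall was favoured by its selection, and without it 5 of 7 genes fell. The median log2 fold change was −0.70 over the 8 genes tested and −0.55 without S100P, against −0.00 over all genes. In bulk RNA, fewer cells of a kind and less RNA per cell cannot be told apart.

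**Figure D1:**
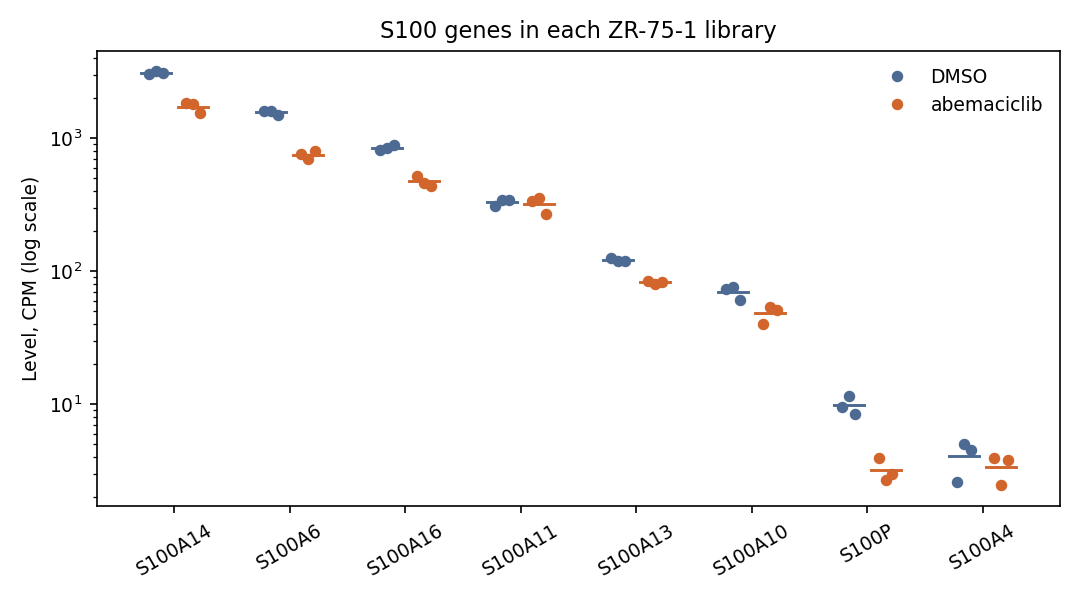
Levels of the 8 tested S100 genes in each library, in CPM on a log axis, with DMSO in blue and abemaciclib in orange. Points are libraries and lines are group means. The groups stand apart for S100A14, S100A6, S100A16, S100A13, S100A10 and S100P and overlap for S100A11 and S100A4. Groups can also stand apart in genes that did not pass the test, such as BSG and TPM1. The share over all genes is not given here.

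S100A14 (ENSG00000189334, chr1:153614255-153616986, minus strand), a member found mainly in epithelia, was the most abundant. It had the 23rd highest mean of all genes with DMSO. Its levels were 3038, 3174 and 3106 CPM with DMSO and 1826, 1794 and 1554 CPM with abemaciclib. Every abemaciclib library lay below every DMSO library, and the abemaciclib mean was 55.5% of the DMSO mean. On the log2 scale it fell by 0.85 (SE 0.09, 95% interval −1.02 to −0.67, edgeR adjusted p = 8.44e-09).

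S100A16 (ENSG00000188643, chr1:153606886-153613145, minus strand) is the neighbour of S100A14 and encodes a widely expressed member. It measured 811.9, 842.4 and 891.3 CPM with DMSO and 523.4, 460.2 and 433.8 CPM with abemaciclib. The groups did not overlap. Its log2 change of −0.85 (SE 0.09, 95% interval −1.04 to −0.65, edgeR adjusted p = 4.87e-08) had the same size as that of S100A14. S100A14 had 3.74, 3.77 and 3.48 counts for each count of S100A16 with DMSO and 3.49, 3.90 and 3.58 with abemaciclib. That ratio differed by −0.00 on the log2 scale between the groups (95% interval from the pooled SD −0.17 to 0.16, exact permutation test, two-sided, p = 1), which does not show that the pair respond alike.

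S100A13 (ENSG00000189171, chr1:153618787-153631360, minus strand), next in the row, takes part in the release of proteins that lack a signal peptide, such as FGF1. Its levels were 126.4, 118.5 and 118.4 CPM with DMSO and 84.3, 80.5 and 83.1 CPM with abemaciclib. The spread within each group was narrow and the groups stood apart, with a mean of 68.2% of the DMSO mean. The fall was smaller than those of its neighbours in size, at −0.55 (log2, SE 0.12, 95% interval −0.79 to −0.32, edgeR adjusted p = 0.000569), and that difference was not tested.

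S100A6 (ENSG00000197956, chr1:153534599-153536244, minus strand) encodes calcyclin, first known as an mRNA that varies with growth state. It was the second most abundant, at 1604, 1587 and 1491 CPM with DMSO and 754.5, 691.1 and 803.1 CPM with abemaciclib. The groups did not overlap, and the abemaciclib mean was 48.0% of the DMSO mean. This was a log2 change of −1.06 (SE 0.09, 95% interval −1.24 to −0.88, edgeR adjusted p = 1.8e-10), and 122 genes had a smaller p. An unnamed gene on the opposite strand overlaps its 3′ end and had 0 counts in every library. Because the strand setting of the counting is not given, whether this overlap affects the counts of S100A6 is uncertain.

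S100P (ENSG00000163993), which binds ezrin and can be secreted, was scarce. It had 33, 39 and 28 counts with DMSO and 13, 11 and 11 with abemaciclib, or 9.52, 11.5 and 8.44 CPM against 3.91, 2.7 and 2.96 CPM. The lowest DMSO library was above the highest abemaciclib library. Its log2 change of −1.62 was the largest in size among the tested S100 genes, but its interval was wide (SE 0.41, 95% interval −2.46 to −0.79, edgeR adjusted p = 0.0037).

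S100A10 (ENSG00000197747, chr1:151982915-151993859, minus strand) is the partner of annexin A2 and has lost the ability to bind calcium. It measured 73.3, 75.9 and 60.9 CPM with DMSO and 40.3, 53.7 and 50.8 CPM with abemaciclib. The groups did not overlap, but the highest abemaciclib and lowest DMSO libraries were close. The fitted log2 change was −0.53 (SE 0.15, 95% interval −0.84 to −0.23, edgeR adjusted p = 0.00852). S100A10 no longer passed when DMSO replicate 2 (−0.47, edgeR adjusted p = 0.0603) or abemaciclib replicate 1 (−0.42, edgeR adjusted p = 0.0551) was left out, which left 5 S100 genes lower.

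S100A11 (ENSG00000163191, chr1:152032506-152047907, minus strand), a widely expressed member that binds annexin A1, was the only one of the 6 most abundant S100 genes that did not pass the test. It measured 308.4, 345.4 and 340.8 CPM with DMSO and 335.3, 351.7 and 270.4 CPM with abemaciclib. The groups overlapped, and the lowest and the highest library were both from abemaciclib. Its log2 change was −0.05, with a 95% interval of −0.27 to 0.16 (edgeR adjusted p = 0.755), and turned to 0.05 without abemaciclib replicate 3. Its 8 annotated pseudogenes in the table had 0 counts in every library.

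The members that fell were set against S100A11 by the ratio of their counts within each library. Both sides were picked by their fold changes in these same libraries, so lower ratios with abemaciclib were favoured by the choice. The ratios therefore add no separate support for a difference in response. S100A14 had 9.85, 9.19 and 9.11 counts per count of S100A11 with DMSO and 5.45, 5.10 and 5.75 with abemaciclib. S100A6 had 5.20, 4.59 and 4.38 counts per count of S100A11 with DMSO and 2.25, 1.97 and 2.97 with abemaciclib. These ratios, and those of S100A13, S100A16 and S100P to S100A11, did not overlap between the groups. Each had p = 0.1 in the exact permutation test (two-sided), the smallest that 3 libraries against 3 allow, and an adjusted p of 0.18 over the 9 ratios tested. The differences between the groups on the log2 scale, with 95% intervals from the pooled SD, were −0.79 (−0.96 to −0.62) for S100A14, −1.0 (−1.53 to −0.47) for S100A6 and −0.79 (−1.06 to −0.51) for S100A16. They were −0.49 (−0.91 to −0.07) for S100A13 and −1.57 (−2.2 to −0.94) for S100P. These intervals are not adjusted for the number of ratios or for the choice of members. S100P had also passed the filter on low counts through its DMSO libraries. The ratio of S100A10 to S100A11 overlapped, with a difference of −0.48 on the log2 scale (95% interval from the pooled SD −1.10 to 0.14, exact permutation p = 0.2).

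S100A4 (ENSG00000196154, chr1:153543613-153550136, minus strand), known for its part in cell motility and metastasis through non-muscle myosin, was near the limit of what could be tested. It had 9, 17 and 15 counts with DMSO and 13, 10 and 14 with abemaciclib. The groups overlapped. With a log2 change of −0.27 and a 95% interval of −1.29 to 0.76 (edgeR adjusted p = 0.752), a change as large as that of S100A6 lay within the interval.

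**Figure D2:**
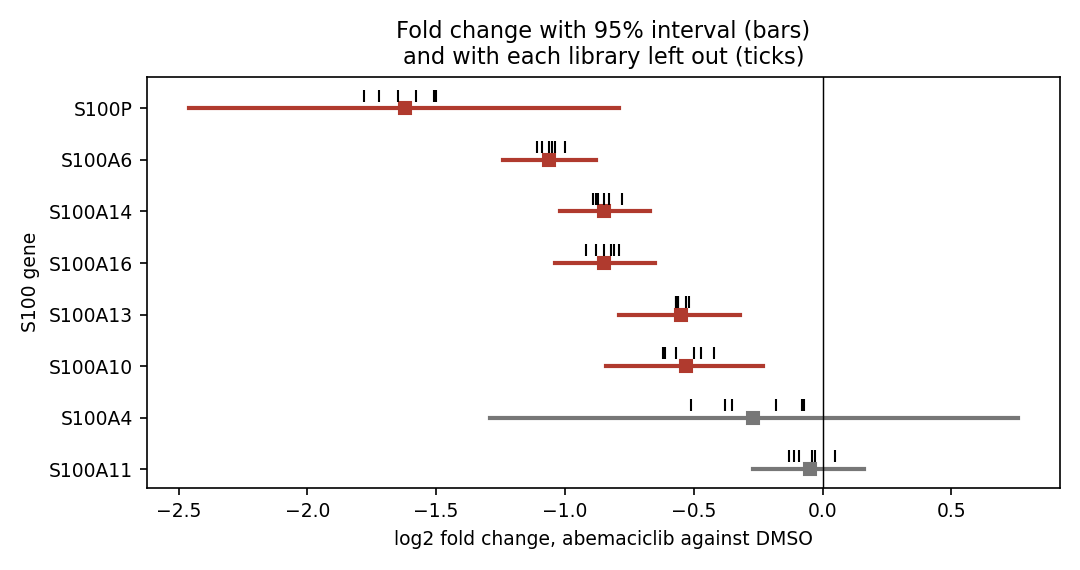
The log2 fold change of each tested S100 gene, abemaciclib against DMSO, with its 95% interval as a bar and the values from leaving out each library as ticks above it. Red genes passed the threshold and grey ones did not. The intervals of S100A6, S100A14 and S100A16 end at −0.88, −0.67 and −0.65, and those of S100A4 and S100A11 include 0.

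S100A8 (ENSG00000143546, chr1:153390032-153391073, minus strand) and S100A9 (ENSG00000163220, chr1:153357854-153361023, plus strand) encode the subunits of calprotectin, the most abundant calcium-binding protein of neutrophils, which squamous epithelia also make under stress. S100A8 had 0 counts in all 6 libraries. S100A9 had 3 counts in DMSO replicate 3, or 0.904 CPM, and 0 in the other libraries. Both were at or under the limit that 3 counts set, so no fold is given. Of their receptors, AGER, which encodes RAGE, had 2, 2 and 0 counts with DMSO, and TLR4 had 2, 0 and 0, each with 0 in every abemaciclib library.

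Ordered by level, the genes ran S100A14, S100A6, S100A16, S100A11, S100A13, S100A10, S100P, S100A4, S100A9 and S100A8 with DMSO. No neighbours in that order overlapped in their 3 libraries except S100A9 and S100A8. With abemaciclib the first 6 kept their places without overlap, S100A4 (2.45 to 3.91 CPM) and S100P (2.7 to 3.91 CPM) overlapped, and the calprotectin genes were both at 0. Together the 10 genes took 0.596%, 0.627% and 0.602% of all counts in the DMSO libraries and 0.355%, 0.349% and 0.313% in the abemaciclib libraries. S100A14 made up 50.8% to 51.6% of those counts with DMSO and 48.5% to 52.2% with abemaciclib. The part of S100A11 was 5.16% to 5.66% with DMSO and 8.44% to 10.2% with abemaciclib, and that of S100A6 was 24.8% to 26.9% and 20.1% to 25.1%.

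**Figure D3:**
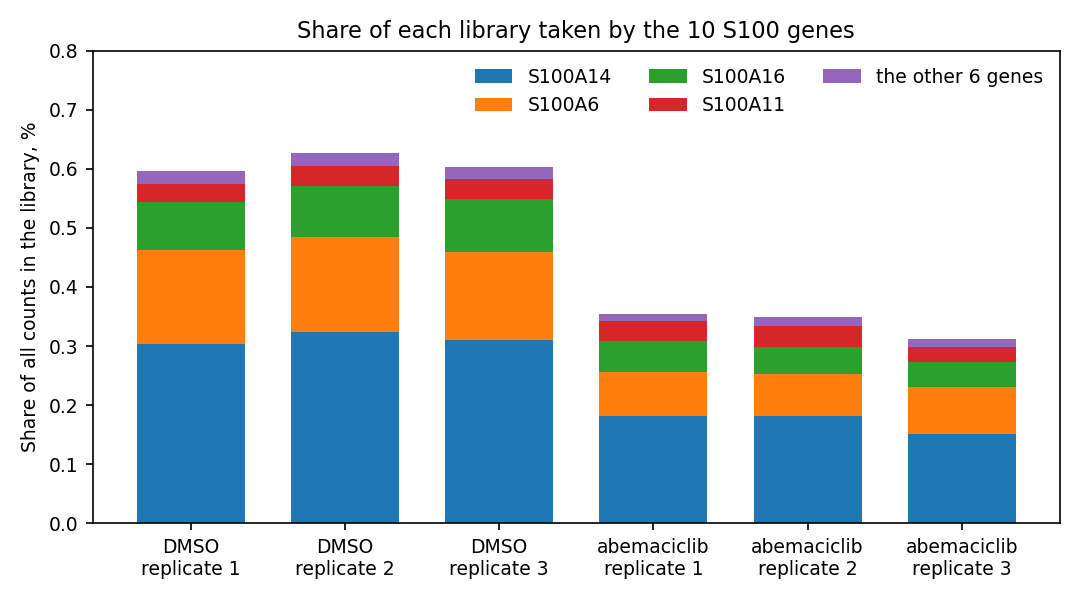
Share of all counts in each library, in percent, taken by the 10 S100 genes, split into the 4 most abundant and the other 6. The bars reach 0.596% to 0.627% in the DMSO libraries and 0.313% to 0.355% in the abemaciclib libraries, with S100A14 the largest part of each.

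The rest of the family had few counts or none, as did most genes. Over all 60656 genes, 40227 had 0 counts in every library and 10863 were tested. Of 12 other genes that carry an S100 name, 7 had 0 counts in every library, and 1 was tested. That one was S100PBP, a binding protein of S100P and no S100 protein itself (log2 change 0.03, edgeR adjusted p = 0.963). S100A2, a member of basal epithelium, had 10, 4 and 18 counts with DMSO and 4, 13 and 4 with abemaciclib, and was not tested. In the chromosome 1 interval, which also holds the filaggrin and late cornified envelope genes, 72 of the 80 genes other than the members had 0 counts in every library, and none of the 80 had enough counts for a test.

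Annexins, calcium-dependent membrane binders that S100 dimers link in pairs, did not move one way. Of 12, 8 were tested, 3 fell and 2 rose (62.5% called, against 25.7% over all genes), with a median log2 fold change of −0.00. ANXA3 and ANXA9 passed the filter on low counts through the group where they were high, and without them 2 of 6 fell and 1 rose. ANXA2, the partner of S100A10, fell from 134.3 ± 23.6 to 95.2 ± 16 CPM (SD, n = 3 each), or by 0.50 on the log2 scale (SE 0.13, edgeR adjusted p = 0.00661). Its groups overlapped, with 108.5 CPM in the lowest DMSO library and 113.7 CPM in the highest abemaciclib library. S100A10 itself changed by −0.53, and its ratio to ANXA2 was 0.474, 0.543 and 0.561 with DMSO and 0.467, 0.628 and 0.447 with abemaciclib. That ratio differed by −0.05 on the log2 scale (95% interval from the pooled SD −0.52 to 0.43, exact permutation p = 0.8). ANXA5, a phosphatidylserine binder, fell from 75.6 ± 5.38 to 42.4 ± 6.23 CPM (SD, n = 3 each), a log2 change of −0.83 (edgeR adjusted p = 7.93e-05). ANXA3 fell from 14, 22 and 13 counts with DMSO to 0, 0 and 5 with abemaciclib (edgeR adjusted p = 0.0018). ANXA9 rose from 4.90, 2.66 and 6.03 CPM to 17.2, 17.7 and 12.4 CPM, and ANXA6, named after its values were seen, rose by 0.33 on the log2 scale (edgeR adjusted p = 0.0131). The count of annexins that rose was 1 with at least 10 counts in every library and without DMSO replicate 3 or abemaciclib replicate 1. ANXA1, the partner of S100A11, had 0 to 12 counts in a library and was not tested.

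Of 21 partners and receptors of S100 proteins outside the annexins, 15 were tested, 4 fell and 1 rose. This was 33.3% called, against 25.7% over all genes, with a median log2 fold change of −0.03. EZR, which encodes ezrin, the S100P partner, fell from 437.3 ± 16.6 to 313.8 ± 19.2 CPM (SD, n = 3 each), a log2 change of −0.48 (edgeR adjusted p = 0.000278). IQGAP1, a scaffold of the actin cytoskeleton, changed by −0.40, as did MYH9, the myosin that S100A4 binds, which was named after its values were seen. ITGB1, which encodes integrin β1, rose by 0.49 (log2, edgeR adjusted p = 0.0045). Without DMSO replicate 1 the count of partners that fell was 2, and without abemaciclib replicate 1 or 3 the count that rose was 2. AHNAK, the large scaffold held by annexin A2 and S100A10, did not pass the test (log2 change 0.17, edgeR adjusted p = 0.351), nor did CACYBP, which encodes the calcyclin-binding protein (−0.19, adjusted p = 0.194). BSG, a receptor for S100A9, also did not pass (0.20, adjusted p = 0.128).

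Among 33 calcium sensors with EF-hands outside the S100 family, 24 were tested, 5 rose and 3 fell (33.3% called, against 25.7% over all genes), with a median log2 fold change of −0.08. CETN3, a centrin of the centrosome, changed by −0.63 and CALM3, a calmodulin gene, by −0.62, while NUCB2 (0.59) and CHP1 (0.51) rose. An unnamed gene on the opposite strand overlaps the 3′ end of CALM3, so its counts are uncertain. The count that rose was 2 without DMSO replicate 1 and 3 without DMSO replicate 2.

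**Figure D4:**
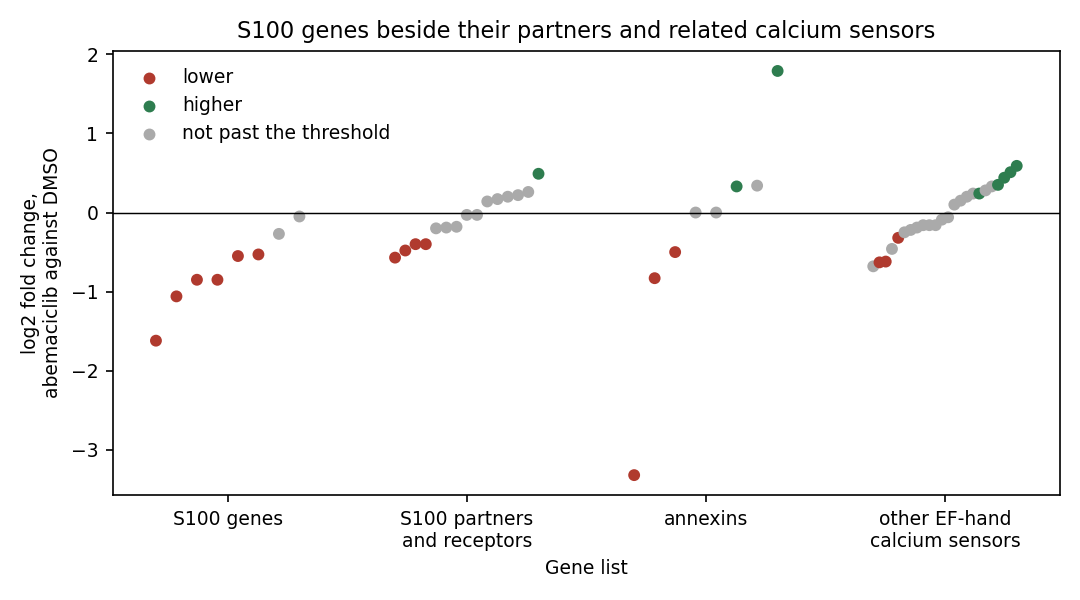
The log2 fold change, abemaciclib against DMSO, of each tested gene in 4 lists, with genes past the threshold in red (lower) or green (higher). The S100 genes that passed all lie below 0 (6 lower, 0 higher), while the partners (4 lower, 1 higher), annexins (3 lower, 2 higher) and other EF-hand genes (3 lower, 5 higher) lie on both sides. Over all genes tested, 13.3% were lower and 12.5% higher.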

How the data were processed

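The 6 libraries of ZR-75-1 cells were grouped by the treatment in the labels, 3 per group. Single-end reads of the 3′ ends of mRNA were trimmed by the authors, aligned to hg38 with STAR (v2.7.5b) and assigned to GENCODE genes with featureCounts (v2.0.1), and the deposited values are raw counts per gene. The strand setting of the counting is not given in the sources used here. The RB1-knockout cells were not analysed here.

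Symbols and coordinates came from GENCODE v44 on the same assembly and matched 60401 identifiers, with 255 unmatched, and promoter sequences came from RefSeq (GRCh38.p14), where all 10 members had an entry. Abemaciclib was compared with DMSO with edgeR 4.0.16 in R 4.3.3 (glmQLFit and glmQLFTest after filterByExpr and TMM), with Benjamini–Hochberg adjustment over 10863 genes and a threshold of 0.05. Standard errors are the log2 fold change divided by the square root of F. The biological coefficient of variation was 13.2%. Same-numbered libraries did not deviate together (r of −0.0893 to 0.00705), so replicate numbers were not taken as pairs, and pairs within a group differed by more than sampling noise (chi-square per degree of freedom 2.84 to 7.29). The edgeR p-values weigh each group difference against a spread between these libraries that is estimated partly from all genes tested. Alternatives were DESeq2 1.42.0, its size factors, total counts, 2 other filters, a replicate block and each library left out.

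The members and lists were chosen with earlier results of these data known. The genes named are all members, up to 4 called genes per list with the largest log2 fold change, and those given as named after their values were seen or as partners that did not pass. Some genes and a sequence covered by these rules are not reported here.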

Additional observations from a re-analysis of the deposited data

How the results depend on the processing

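Of 95 values of the tested S100 genes under an alternative, 92 held in sign and in call, 2 lost the call and 1 changed sign. The calls lost were those of S100A10 without DMSO replicate 2 and without abemaciclib replicate 1, and S100A11, which was never past the threshold, ran from −0.13 to 0.05 on the log2 scale, with 0.05 without abemaciclib replicate 3. Leaving out 1 library at a time gave log2 changes of −1.11 to −1.0 for S100A6, −0.89 to −0.78 for S100A14, −0.92 to −0.79 for S100A16, −0.57 to −0.52 for S100A13, −0.62 to −0.42 for S100A10 and −1.78 to −1.50 for S100P. The count of S100 genes lower was 6 under DESeq2, other scalings and other filters, and 5 or 6 with a library left out, and 0 were higher in any fit. With the replicate number as a block, 6 were lower and 0 higher among S100 genes, 1280 lower and 1139 higher over all genes, and no call of an S100 gene changed. Over all genes, 981 to 1411 were higher and 1132 to 1529 lower with a library left out. For the other lists, 8 of 120 counts moved by over 1.5 times. The cause of these changes was not tested. S100A4 and S100P had at most 39 counts in a library, and the widest intervals of the tested S100 genes.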

Other observations

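Genes just outside the S100 interval on chromosome 1 were described after the values of the interval were seen. Within 500 kb on either side, 19 of 70 genes had enough counts for a test, 3 fell and 1 rose, or 21.1% called, against 25.7% over all genes tested. Their median log2 fold change was −0.20, with a range of −1.28 to 1.15.

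The 3 genes whose level over the 6 libraries followed that of S100P most closely were a processed pseudogene with no name (ENSG00000240652, Pearson r = 0.997), MT-ND6, a subunit gene of respiratory complex I on the mitochondrial genome (r = 0.996), and PRC1, which bundles microtubules in dividing cells (r = 0.996). Over 6 libraries in 2 groups such values mostly reflect the gap between the groups, and 357 of 10862 genes had an r above 0.95. PRC1 fell from 32.5 ± 6.46 to 6.76 ± 1.98 CPM (SD, n = 3 in each group). Among the S100 genes, r over the same 6 libraries was 0.99 between the neighbours S100A14 and S100A16, and also 0.99 between S100A6 and S100A13. It was 0.98 between S100A6 and S100P, which lie on different chromosomes, and 0.40 between S100A14 and S100A11.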
